A study of Mus musculus with 8 samples.

Results

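The spectrin-actin membrane skeleton of lens fiber cells (FC) was followed through 10 genes: Sptan1, Sptbn1, Ank2, Epb41, Add1, Tmod1, Tmod3, Ezr, Prx and Actb. They were chosen by name, as the rows of the deposited expression table that carry their gene symbols, out of 35275 genes listed. The table held 9 of them under the current symbol and 1, Epb41, under the older symbol Epb4.1. All 10 reached the minimum level for the test, a group mean of 1.0 FPKM, and so were among the 9794 genes tested. FPKM, the count of fragments scaled to gene length and to the size of the library, is a level per length. Comparisons of levels between genes depend on the gene lengths by which the authors divided, whose annotation is not given in the sources used here.

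The membrane skeleton is a protein network on the inner face of the plasma membrane. Rod-like tetramers of α- and β-spectrin are tied together at short actin filaments, whose ends are held by tropomodulin and adducin and whose contact with spectrin is strengthened by protein 4.1, while ankyrin fastens the network to membrane proteins. Lens FC are long cells packed in regular rows, and the network is known there for keeping their shape and packing. Ezrin and periaxin belong to another link between the fiber membrane and actin.

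The study asked what cigarette smoke (CS) does to the mouse lens. The 4 CS-FC libraries came from C57BL/6 mice (C57BL/6J in the study's methods) kept in a whole-body smoke chamber for 3.5 months, 5 hours a day on 5 days a week, from around birth, and the 4 CT-FC libraries came from age-matched untreated control (Ct) mice of the same strain. Each library was made from RNA of a pool of FC from the right lenses of 4 mice, and the FC had been parted from the lens epithelium by dissection. The study's methods describe male and female replicates in each group, which the library labels do not tell apart. Sex was therefore not modelled and may be part of the spread within a group. Because each library is a pool, a p-value measures the spread between pools and not between single mice. In such bulk RNA, fewer cells of a type and less RNA per cell cannot be told apart.

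The steps between low FPKM values gave estimated depths of about 18094000 to 23251000 fragments per library. The 10 FC markers examined, which were crystallins, membrane and beaded filament genes and the nuclease gene Dnase2b, were present in all libraries. Markers of other cell types were low but not equal: 6 lens epithelium markers summed to 57.9 to 116 FPKM in CT-FC and 47.0 to 76.5 in CS-FC, and 6 rod photoreceptor markers to 6.42 to 21.9 and 24.1 to 76.3, with 5 of the 6 above every CT-FC library in every CS-FC library. The 6 retinal pigment epithelium markers summed to 0.922 to 1.84 FPKM in CT-FC and 2.68 to 25.5 in CS-FC, so that all CS-FC libraries lay above all CT-FC libraries, with the highest sum in CS-FC replicate 3, although Best1 was listed at 0 in all libraries. The part of these cells in the values given here was tested only for the lens epithelium.

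None of the 10 genes passed the test for a change with CS. In the limma fit across all genes, 0 of the 10 had an adjusted p under 0.05, against 1 of 9794 genes (0.0102%), and 0 had an unadjusted p under 0.05, against 473 genes (4.83%). In 0 of the 10 did the 4 CS-FC libraries lie apart from the 4 CT-FC libraries, which 302 genes (3.08%) did. The differences were small in both directions, with 6 genes higher and 4 lower in CS-FC and a median difference of 0.016 on the log2 scale. Without regard to sign, the median difference was 0.033 log2 for the 10 genes and 0.084 log2 for all genes tested. With backgrounds this low, fewer than 1 call would fall among 10 genes taken at large, so each gene is given with the interval of its difference.

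**Figure D1:**
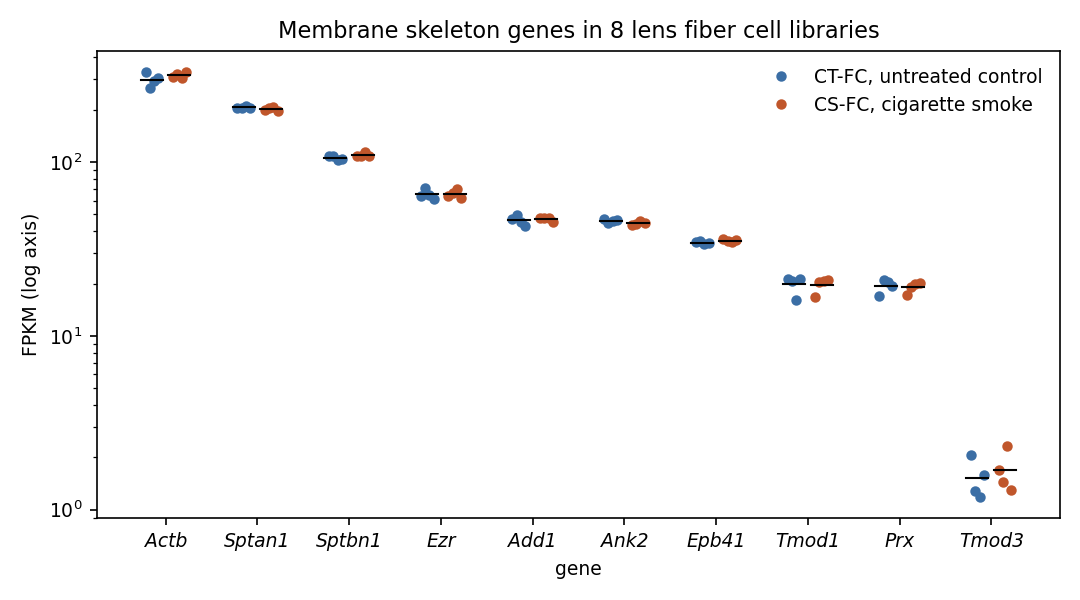
FPKM (log axis) of the 10 membrane skeleton genes, ordered by mean, with a point for each of the 4 CT-FC and 4 CS-FC libraries and a bar at each group mean. Levels run from 330 FPKM (Actb) to 1.19 FPKM (Tmod3), and the CS-FC points overlap the CT-FC points for every gene.

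Among the spectrins, Sptan1 (chr2:29965560-30031451, plus strand, GRCm38, as for all positions given here), which encodes αII-spectrin, was the most abundant member after Actb, at rank 196 of the 9794 genes tested. Its level was 204, 206, 211 and 205 FPKM in CT-FC replicates 1 to 4, and 200.1, 205, 208 and 197 FPKM in CS-FC replicates 1 to 4. The groups overlapped, with the highest value in CT-FC replicate 3 and the lowest in CS-FC replicate 4. The means of 206 ± 3.47 and 203 ± 4.71 FPKM (SD, n = 4 each) gave a log2 difference of -0.028 (SE 0.037, 95% interval -0.11 to 0.052, limma adjusted p = 0.985). The interval spans folds of 0.928 to 1.04. The coefficient of variation (CV) of Sptan1 over all 8 libraries was 2.13%, with 29748 to 39419 fragments recovered behind each value, whereas the median CV was 12.0% for the 9794 genes and 6.98% for the 2748 of them with at least 10 FPKM.

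Sptbn1 (chr11:30099395-30268175, minus strand) encodes βII-spectrin, the usual partner of αII-spectrin in tetramers outside the red blood cell. Its level was 108, 108, 103 and 105 FPKM in CT-FC and 109, 108, 115 and 108 FPKM in CS-FC. CS-FC replicate 3 stood above the other 3 CS-FC libraries, and the remaining CS-FC values lay close to the highest CT-FC value, so that the groups overlapped narrowly. The log2 difference was 0.052 (SE 0.042, 95% interval -0.040 to 0.14, limma adjusted p = 0.961).

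In CS-FC the mean of Sptan1 was slightly lower and that of Sptbn1 slightly higher, neither past the test. Drawing on the same values, and so not as separate support, their ratio within a library, which does not depend on its depth, was compared as well. It was 1.88, 1.90, 2.05 and 1.96 in CT-FC and 1.84, 1.90, 1.81 and 1.82 in CS-FC. Except for CS-FC replicate 2, all CS-FC ratios lay below all CT-FC ratios. The mean ratios of 1.95 ± 0.074 and 1.84 ± 0.043 differed by -0.079 on the log2 scale, with a two-sided exact permutation p of 0.0857, adjusted p = 0.343 over 4 pairs of relatives. The smallest p that 4 against 4 libraries allow is 0.0286.

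Sptbn1 was not the only β-spectrin gene expressed. Sptb, which encodes the βI-spectrin of red blood cells, was at 61.0, 66.1, 64.5 and 60.4 FPKM in CT-FC and at 64.1, 63.8, 67.3 and 63.02 in CS-FC. The groups overlapped, and the means of 63.0 ± 2.75 and 64.6 ± 1.90 FPKM differed by 0.036 log2 (SE 0.049, limma adjusted p = 0.985). Sptb was singled out after its values were seen, as were the relatives named further on other than Actg1, Epb41l2, Capzb, Tpm4 and Actn4.

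**Figure D2:**
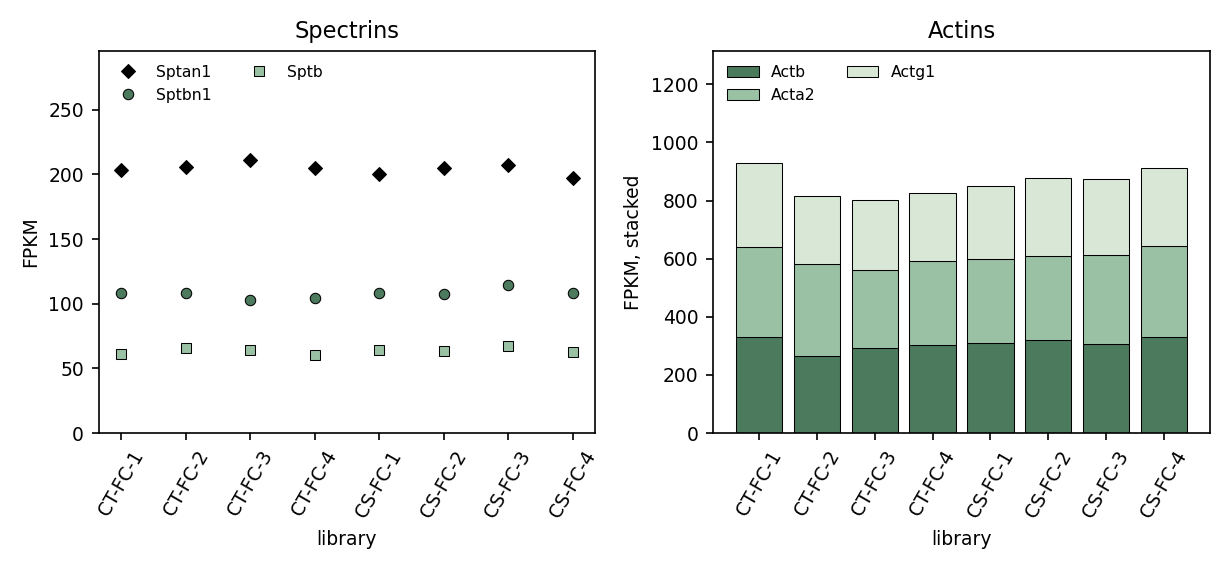
FPKM of Sptan1, Sptbn1 and Sptb as points (left), and stacked bars of the FPKM of Actb, Acta2 and Actg1 (right), in each of the 8 libraries, both axes from 0. Sptan1 stands at 1.81 to 2.05 times Sptbn1 and Sptb below both in every library, and each actin makes up 28.4 to 38.8% of its bar.

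Beside Sptb, further membrane skeleton genes known from red blood cells were examined, and 2 of them were near or at 0. Epb42, the red blood cell protein 4.2, was listed at 0 in all libraries. Ank1, the ankyrin of red blood cells, was at 0.171 ± 0.072 and 0.141 ± 0.050 FPKM. Of 7 red blood cell markers, Slc4a1 (the anion exchanger) reached 0.0446 FPKM at most, and the 7 together summed to 0.265 to 1.73 FPKM in CT-FC and 0.4999 to 22.8 in CS-FC. The highest sum was in CS-FC replicate 4, where Hbb-bs was at 11.1 FPKM and Sptb at 63.02 FPKM, within the CT-FC range of 60.4 to 66.1. The part of red blood cell RNA in the Sptb values was not tested.

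Ank2 (chr3:126921612-127499350, minus strand) encodes ankyrin-B, which binds β-spectrin and anchors it to channels and adhesion proteins of the membrane. Its level was 46.9, 44.8, 45.7 and 46.7 FPKM in CT-FC and 43.5, 44.2, 45.9 and 44.6 in CS-FC. Most CS-FC values lay below the CT-FC range, but CS-FC replicate 3 lay inside it. The means of 46.0 ± 0.95 and 44.5 ± 0.98 FPKM differed by -0.048 log2 (SE 0.047, 95% interval -0.15 to 0.054, limma adjusted p = 0.976). Ank3, which encodes ankyrin-G, was the only other ankyrin above 1 FPKM, at 3.90 ± 0.50 and 3.90 ± 0.60 FPKM, and Ank2 exceeded Ank1 172- to 480-fold.

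Epb41 (chr4:131923413-132075321, minus strand) encodes protein 4.1R, which binds spectrin and actin together at the network's junctions. It was the steadiest of the 10 genes, with a CV of 1.98% where counting 4059 to 5346 fragments alone gives 1.45%. Its level was 34.6, 34.9, 33.9 and 34.2 FPKM in CT-FC and 35.9, 35.3, 34.6 and 35.5 in CS-FC. The CS-FC values were the higher ones except in CS-FC replicate 3, which fell within the CT-FC range. The means of 34.4 ± 0.47 and 35.3 ± 0.56 FPKM differed by 0.0385 log2 (SE 0.048, 95% interval -0.066 to 0.14, limma adjusted p = 0.985). Of 9 genes of the protein 4.1 family and its partners, 6 were tested. Epb41l2, which encodes protein 4.1G, had the highest level among them, 43.8 ± 1.54 FPKM in CT-FC and 44.5 ± 1.79 in CS-FC.

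Add1 (chr5:34573664-34632308, plus strand) encodes α-adducin, which caps the fast-growing ends of the actin filaments and recruits spectrin to them. Its level was 46.8, 49.9, 45.4 and 43.0 FPKM in CT-FC and 47.6, 47.5, 47.4 and 45.4 in CS-FC. The CT-FC libraries spread more widely than the CS-FC libraries and enclosed all of them. The log2 difference was 0.024 (SE 0.056, 95% interval -0.098 to 0.145, limma adjusted p = 0.989). Adducins work as pairs of α with β or γ: Add2, the β form, had 39.6 ± 3.75 and 42.1 ± 1.64 FPKM, close to Add1, whereas Add3, the γ form, had 2.51 ± 0.64 and 2.57 ± 0.23 FPKM. All 4 genes of the list of adducins and dematin had a higher mean in CS-FC, by a median of 0.060 log2, as did 5019 of the 9794 genes tested, and none of the 4 passed the test that 4.83% of all genes passed at an unadjusted p under 0.05, a share too low for 4 genes to be read against it.

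At the slow-growing end of the filaments sit the tropomodulins. Tmod1 (chr4:46038935-46116032, plus strand), the form of red blood cells, muscle and lens, was at 21.4, 20.7, 16.1 and 21.2 FPKM in CT-FC and at 16.7, 20.5, 20.8 and 20.97 in CS-FC. A single library in each group, CT-FC replicate 3 and CS-FC replicate 1, stood well below the other 3, which spanned 20.5 to 21.4 FPKM over both groups. The means of 19.9 ± 2.49 and 19.7 ± 2.02 FPKM differed by -0.0047 log2, with a 95% interval of -0.23 to 0.22 (folds of 0.851 to 1.17, limma adjusted p = 0.997). The CV of 10.6% exceeded the 2.77% that the count of 1115 to 1496 fragments gives. In the annotation, 32.6% of the exon bases of Tmod1 overlap exons of a neighbour, Tstd2, whose own level was 3.02 to 4.81 FPKM, so the fragments of the shared stretch could have been counted for either gene or for neither. Tstd2 was at its lowest, 3.02 FPKM, in CT-FC replicate 3, and at 3.77 FPKM in CS-FC replicate 1, which was inside the range of the other libraries.

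Tmod3 (chr9:75497707-75559657, minus strand), the widely expressed tropomodulin, was the lowest member. Its level was 2.05, 1.27, 1.19 and 1.58 FPKM in CT-FC and 1.70, 1.44, 2.33 and 1.29 in CS-FC, from only 90 to 171 fragments per library. The groups were fully interleaved, and the CV of 25.1% was the largest of the 10. The log2 difference of 0.14 (SE 0.22) had a 95% interval of -0.35 to 0.63, or folds of 0.784 to 1.54, so that a change of that size was not detectable at this depth and spread. Tmod1 exceeded Tmod3 by 8.91- to 16.3-fold in the libraries, with mean ratios of 13.4 ± 2.39 in CT-FC and 12.3 ± 3.495 in CS-FC (two-sided exact permutation p = 0.543, adjusted p = 1 over the 4 pairs). Among the remaining tropomodulins and leiomodins, Tmod2 had 0.842 and 0.981 FPKM in the means, and Lmod2 and Lmod3, which are known from muscle, were listed at 0 in all libraries.

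Ezr (chr17:6738041-6782784, minus strand) encodes ezrin, which links membrane proteins to actin, and was at rank 510 of the genes tested. Its level was 63.9, 71.2, 65.1 and 61.0 FPKM in CT-FC and 63.7, 66.8, 70.03 and 62.1 in CS-FC. The groups covered nearly the same range, and the log2 difference was 0.0080 (SE 0.060, 95% interval -0.12 to 0.14, limma adjusted p = 0.995). CS-FC replicate 3, the highest of its group for Ezr, also had the highest sum of retinal pigment epithelium markers, 25.5 FPKM, and their part in the Ezr values was not tested. The related Rdx (radixin) and Msn (moesin) were lower, at 11.9 ± 0.75 and 6.44 ± 1.22 FPKM in CT-FC and at 12.2 ± 0.50 and 5.93 ± 0.72 in CS-FC.

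Prx (chr7:27499324-27520214, plus strand) encodes periaxin, a scaffold protein best known from the myelin-forming Schwann cell and also found with ezrin, periplakin and desmoyokin at the fiber membrane. It was at 16.9, 20.96, 20.4 and 19.3 FPKM in CT-FC and at 17.3, 19.2, 20.01 and 20.1 in CS-FC. Replicate 1 was the lowest library in both groups, and the groups overlapped over almost their whole range. The log2 difference was -0.018 (SE 0.081, 95% interval -0.195 to 0.16, limma adjusted p = 0.995). Exons of Gm15541 cover 5.38% of its exon bases. The genes of its partners in the complex had levels of the same order, with 34.98 ± 0.80 and 34.2 ± 1.38 FPKM for Ppl (periplakin) and 32.7 ± 3.97 and 31.3 ± 1.87 for Ahnak (desmoyokin). By contrast, Drp2, the partner of periaxin in Schwann cells, was at 0.130 ± 0.14 and 0.111 ± 0.068 FPKM. Of 4 Schwann cell markers, 3 were under 1 FPKM in all libraries, and the 4 together summed to 0.834 to 1.42 FPKM in CT-FC and 0.738 to 1.14 in CS-FC. The Ezr to Prx ratio was 3.38 ± 0.28 in CT-FC and 3.44 ± 0.25 in CS-FC (two-sided exact permutation p = 0.8, adjusted p = 1).

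Actb (chr5:142903115-142906754, minus strand), which encodes β-actin and is often used as a reference gene, was the most abundant member at rank 144. Its level was 329.9, 266, 293 and 303 FPKM in CT-FC and 309, 319.8, 305 and 329 in CS-FC. The CT-FC libraries took both the highest and the lowest place, in replicates 1 and 2. The means of 298 ± 26.3 and 316 ± 11.0 FPKM differed by 0.086 log2 (SE 0.059, 95% interval -0.043 to 0.21, folds of 0.971 to 1.16, limma adjusted p = 0.956). The size of the difference depended on single CT-FC libraries and on the scaling. It was 0.14 log2 without CT-FC replicate 1 (unadjusted limma p of 0.0253, adjusted p of 0.907), 0.034 log2 without CT-FC replicate 2 and 0.028 log2 with quantile normalization.

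Actg1, which encodes γ-actin, had 249 ± 25.5 FPKM in CT-FC and 263 ± 8.56 in CS-FC and its highest value, 287 FPKM, in CT-FC replicate 1, the highest CT-FC library for Actb as well. The coding sequences of Actb and Actg1 share 1000 of 1128 bases (88.7%), with a longest identical run of 62 bases, and differ at 9 of the first 60. These first bases are shown because the cytoplasmic actins are told apart at the protein level by their first residues and at the read level by such scattered differences. They lie in exon 2 of each gene on the minus strand, at chr5:142905627-142905686 for Actb and chr11:120348032-120348091 for Actg1 (GENCODE M21, GRCm38), and capitals mark the bases that differ.
Actb: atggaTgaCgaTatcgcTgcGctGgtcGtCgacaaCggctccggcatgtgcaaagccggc
Actg1: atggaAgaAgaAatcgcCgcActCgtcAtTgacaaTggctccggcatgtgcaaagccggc
No stretch of 150 bases of the Actb transcript (0 of 1771 windows) occurs in a transcript of another gene, and the same held for the other 9 members. Transcripts were searched in the sense direction only, so these counts do not exclude exon overlap such as that of Tmod1 with Tstd2. In Actg1, 785 of 1803 windows (43.5%) also occur in transcripts of other genes, mostly those of Gm12715, so its level is less certain than that of Actb. The Actb to Actg1 ratio was 1.20 ± 0.067 in CT-FC and 1.20 ± 0.036 in CS-FC (two-sided exact permutation p = 1).

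A further actin stood at the same level. Acta2, which encodes the α-actin of smooth muscle, had 296 ± 22.2 FPKM in CT-FC and 300 ± 12.4 in CS-FC, and made up 33.0 to 38.8% of the summed FPKM of the 3 actins, against 32.7 to 36.7% for Actb and 28.4 to 30.9% for Actg1. The other 4 smooth muscle markers examined, Myh11, Des, Cnn1 and Tagln, were under 1 FPKM in all libraries, with Tagln at most at 0.819 FPKM. None of the windows of the Acta2 transcript (0 of 1886) occurs in a transcript of another gene, searched in the sense direction.

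Setting the members in order of mean FPKM over all 8 libraries gave Actb, Sptan1, Sptbn1, Ezr, Add1, Ank2, Epb41, Tmod1, Prx and Tmod3. Of the 9 neighbours in that order, 7 differed in the same direction in 8 of 8 libraries. Each of these had the smallest two-sided exact sign-flip permutation p that 8 libraries allow (0.00781, adjusted p = 0.01004 over 9 neighbours). The order was set from the same libraries, so these p-values describe how steady each step was and are not separate support for the order. Actb exceeded Sptan1 by 1.497-fold, Sptan1 exceeded Sptbn1 by 1.89-fold, and Sptbn1 exceeded Ezr by 1.65-fold. Add1 and Ank2 did not differ beyond their spread (1.03-fold, higher in 5 of 8 libraries, exact permutation p = 0.203), nor did Tmod1 and Prx (1.02-fold, 5 of 8 libraries, exact permutation p = 0.594). The last step, from Prx to Tmod3, was 11.6-fold. These folds and the order hold for the lengths behind the deposited FPKM, which were shorter than all annotated exons joined by unequal factors. The FPKM of Tmod3 implied 3578 bases where its exons cover 11151, that of Sptbn1 9107 of 17492 and that of Ezr 3164 of 3290, so other lengths could change the order.

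**Figure D3:**
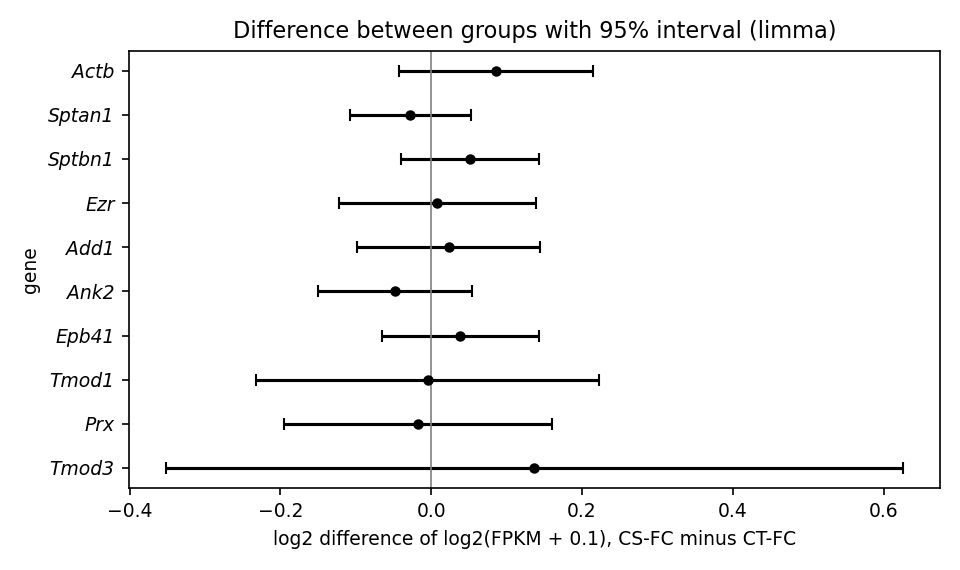
Log2 difference of log2(FPKM + 0.1) between CS-FC and CT-FC for each member with its 95% interval from limma (n = 4 libraries a group), and a grey line at 0. Every interval includes 0, and that of Tmod3, -0.35 to 0.63, is the widest.

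The wider network was read from a list of 58 genes in 10 families. Of these, 40 were tested, and 0 had an adjusted p under 0.05, 0 had an unadjusted p under 0.05 (limma), and 0 had groups that did not overlap. The shares over all genes tested were 0.0102%, 4.83% and 3.08%, so that few calls would fall among 40 genes taken at large and the counts of 0 are not a result about the list. By mean, 23 were higher and 17 lower in CS-FC, with a median of 0.010 log2 and a range from -0.16 (Pls3, plastin 3) to 0.15 (Capza1, a capping protein subunit). The other 18 had means under 1 FPKM and were not tested, and 3 of them (Epb42, Lmod2 and Lmod3) were listed at 0 throughout. At the upper end, 29 genes had at least 10 FPKM and 5 at least 100 FPKM, namely Actb, Acta2, Actg1, Sptan1 and Sptbn1.

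Families differed in how many members were present. Of 7 spectrins, 4 were tested, as were 2 of 3 ankyrins, 2 of 7 tropomodulins and leiomodins and 3 of 6 actins, while all 3 subunits of actin capping protein, which blocks the fast-growing end, were tested. Capzb, its β subunit, had the highest level among these with 75.7 ± 4.56 FPKM in CT-FC and 79.96 ± 2.46 in CS-FC. Tropomyosins run along the filaments that tropomodulin caps. Of 4, 3 were tested, and Tpm4 led with 20.4 ± 1.61 and 20.6 ± 1.65 FPKM, near Tmod1. Among 6 actin crosslinkers and non-muscle myosins, all tested, Actn4 (α-actinin 4) led with 28.8 ± 1.90 and 28.3 ± 1.86 FPKM. Levels within a family could lie far apart, as in the spectrins with CT-FC means from 0.012 FPKM (Sptbn5) to 206 FPKM (Sptan1). By contrast, the largest difference between the groups among the tested genes of the 58 was -0.1613 on the log2 scale (Pls3).

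**Figure D4:**
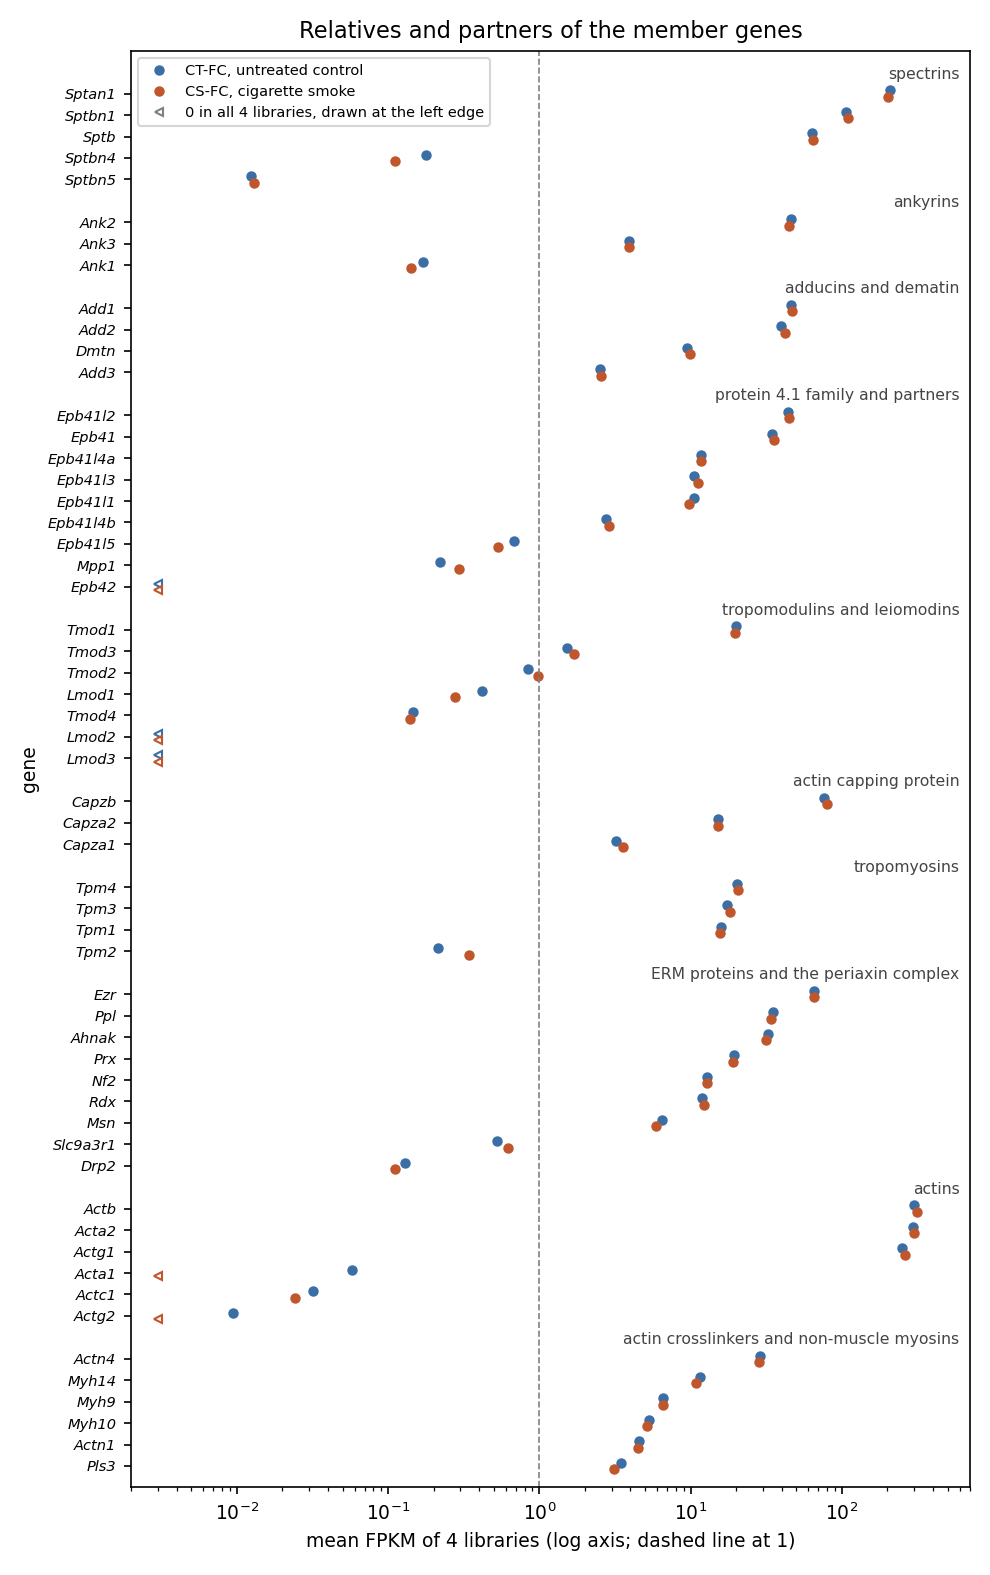
Mean FPKM (log axis) of the genes of the membrane skeleton list reported here in CT-FC and CS-FC (4 libraries each), by family, with a dashed line at 1 FPKM and open triangles for genes at 0 in all 4 libraries of a group. The paired points of genes above 10 FPKM nearly coincide, and Epb42, Lmod2 and Lmod3 lie at 0 in both groups.

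Because the dissection can leave epithelial cells on the fiber mass, the members were also set against the lens epithelium markers. The score, the mean log2(FPKM + 0.1) of Foxe3, Pax6, Cdh1, Gja1, Aqp1 and Pdgfra, was 2.42, 2.85, 3.503 and 2.39 in CT-FC and 2.42, 2.80, 2.95 and 2.28 in CS-FC. CT-FC replicate 3 held the most epithelial RNA by this score, and the groups overlapped. Over the 8 libraries, Sptan1 rose with the score (Pearson's r = 0.878, exact permutation p = 0.00161, adjusted p = 0.0161 over 10 members, Spearman's rho = 0.929, exact permutation p = 0.00223, adjusted p = 0.0223). Leaving out CT-FC replicate 3 and CS-FC replicate 3, the libraries farthest from the median score, left r = 0.713. The call was lost without CS-FC replicate 1, when 0 of the 10 members passed.

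The whole range of Sptan1 over this relation was 197 to 211 FPKM. For the other 9 members the adjusted p of r was 0.331 or more. Ezr had r = 0.543 and rho = 0.810 (exact permutation p = 0.0218, adjusted p = 0.109 for rho). Without CT-FC replicate 3 and CS-FC replicate 3, r was 0.914 for Ezr and 0.704 for Add1 (0.198 with all 8 libraries), beside the 0.713 of Sptan1, and lay between -0.620 and 0.407 for the other 7 members. Tmod1 had r = -0.500 (exact permutation p = 0.199, adjusted p = 0.331), and r was 0.099 without CT-FC replicate 3 and CS-FC replicate 3, so that the relation rested on those libraries. The low Tmod1 value of CS-FC replicate 1 came with a score of 2.42, among the lower ones.

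**Figure D5:**
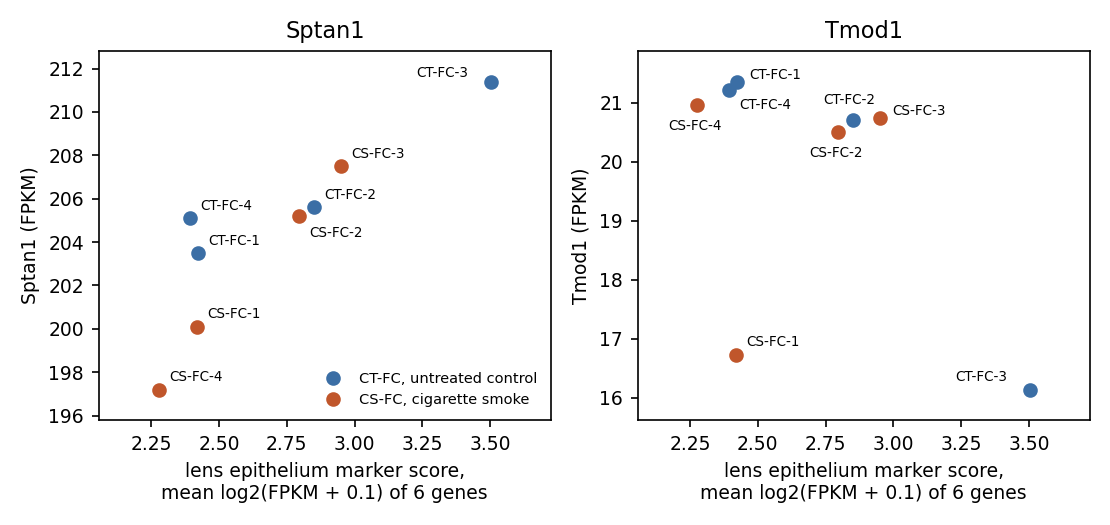
FPKM of Sptan1 (left) and Tmod1 (right) against the lens epithelium marker score, with a point for each of the 8 libraries; the vertical axes do not start at 0. Sptan1 is highest in CT-FC replicate 3 (score 3.503) and lowest in CS-FC replicate 4 (score 2.28), and Tmod1 is low in CT-FC replicate 3 and CS-FC replicate 1, at scores of 3.503 and 2.42.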

How the data were processed

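RNA of lens FC was measured in 4 CT-FC and 4 CS-FC libraries, grouped by their labels. The authors sequenced NEBNext Ultra libraries and, per the submitters' processing notes, aligned reads to GRCm38/mm10 with STAR 2.5 and counted them with HTSeq 0.6.1. The annotation release is not given in the sources used here. The deposited values are FPKM per library. The authors also deposited group means and log2 fold changes and p-values of their own DESeq2 comparison, which were not used. No column of per-sample values was left unused (0).

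Differences were tested with limma 3.58.1 in R 4.3.3 (variance trend, two-sided) on log2(FPKM + 0.1) over the 9794 genes whose mean reached 1.0 FPKM in CT-FC or CS-FC, adjusted by Benjamini-Hochberg over all of them, so that fold changes of low genes are understated. Whole fragments were recovered from FPKM steps for 9770 of 9794 genes (99.8%, within 0.05 fragments), with a median of 313 fragments behind a value. The absolute depth rests on 651 of 9083 genes that gave the same estimate and is approximate. Counting CVs cover counting error only. Ratios were compared by exact permutation over 70 assignments. Python 3.11.15 with scipy 1.17.1 was used, and the fits were tested on simulated data.

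The text names the 10 members, list genes with p under 0.05, the most abundant gene of each family, Actg1 and cell type markers. Other genes were singled out after their values were seen, and some list genes and markers are counted but not reported here by name. The members and lists were chosen with earlier results of these data known. Positions and sequences come from GENCODE M21, and Epb41 family symbols were matched through RefSeq synonyms. Alternatives were pseudocounts of 1 and 0.01, minimums of 0.5 and 5 FPKM and none, median centring, quantile normalization, other variance trends, limma-voom on recovered fragments, a replicate block and leaving out each library.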

Additional observations from a re-analysis of the deposited data

Results flagged for a closer look

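Among 30 groups of 4 libraries examined for the members and their closest relatives, 5 held a library far from the other 3 by Dixon's criterion, where chance gives about 1 in 20, or 1.5. Tmod1 was flagged in both groups, at 16.1 FPKM in CT-FC replicate 3 against 20.7 to 21.4 in the other CT-FC libraries, and at 16.7 FPKM in CS-FC replicate 1 against 20.51 to 20.97 in the other CS-FC libraries. Sptbn1 was high in CS-FC replicate 3, at 114.8 FPKM against 107.8 to 108.6. Add1 was low in CS-FC replicate 4, at 45.4 FPKM against 47.4 to 47.6. Actg1 was high in CT-FC replicate 1, at 287 FPKM against 232 to 241.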

How the results depend on the processing

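After adjustment, 0 members and 0 genes of the wider list passed under any alternative. At an unadjusted limma p under 0.05, the count of members was 0 under all alternatives except without CT-FC replicate 1, where it was 1 (Actb, 0 to 1 over the libraries left out). The count for the list went from 0 to 1 with a pseudocount of 0.01, with no minimum, with quantile normalization and with limma-voom on recovered fragments, with no call after adjustment. Leaving out single libraries gave 0 to 3, namely 1 without CT-FC replicate 2 and 1 without CS-FC replicate 1, and Actb, Actg1 (0.16 log2, adjusted p = 0.882) and Capzb (0.12 log2, adjusted p = 0.907) without CT-FC replicate 1. Over all genes, 473 had a p under 0.05, against 226 with a minimum of 5 FPKM and 862 with none, and 43.1% of the 473 were lower in CS-FC, against 49.6% after median centring and 56.5% without CS-FC replicate 3. Same-numbered libraries of the 2 groups deviated together with correlations of 0.012, 0.078, 0.11 and 0.16. For differently numbered libraries the correlations were lower for the most part, from -0.126 to 0.055. The labels give numbers but name no pairs, so the numbers were not taken as pairs in the main fit. The replicate block gave 522 genes with a p under 0.05 and 5 after adjustment, 0 of them members.

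Of 189 log2 differences of members recomputed, 15 changed sign, and none of these was past the threshold. Tmod1 was 0.0053 log2 with limma-voom and Ezr -0.0063 with quantile normalization. Quantile normalization also moved Sptan1 to -0.046, Sptbn1 to 0.034, Tmod1 to -0.0130, Epb41 to 0.0127, Add1 to 0.0031, Prx to -0.033 and Actb to 0.028 log2, each by over 1.5 times. Leaving out single libraries moved Sptan1 from -0.040 to -0.0150, Sptbn1 from 0.0305 to 0.061, Ank2 from -0.062 to -0.037, Epb41 from 0.0308 to 0.0486, Tmod1 from -0.10 to 0.072, Tmod3 from -0.021 to 0.28, Add1 from -0.011 to 0.060, Ezr from -0.024 to 0.0505, Prx from -0.082 to 0.030 log2, and Actb from 0.034 to 0.14 log2. The log2 ratio of Tmod1 to Tmod3 ranged from -0.0097 without CS-FC replicate 3 to -0.28 without CS-FC replicate 4, that of Sptan1 to Sptbn1 from -0.095 to -0.055, and those of Ezr to Prx and of Actb to Actg1 from -0.0080 to 0.0799 and from -0.022 to 0.0342. With the replicate block, the exact sign-flip p of the ratios Sptan1/Sptbn1, Tmod1/Tmod3, Ezr/Prx and Actb/Actg1 was 0.25, 0.5, 0.75 and 1, where 0.125 is the smallest possible. The relation to lens epithelium markers passed for 1 member, Sptan1, and for 0 without CS-FC replicate 1 (0 to 1 over the libraries left out). It passed for 1 with deviations from group means, chosen after seeing the data. The cause of these shifts was not tested. For Tmod3, counting alone gives a CV of 9.15% where 25.1% was observed.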
